A study of Mus musculus with 12 samples.

Results

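The cells described here were hashtagged organoid cells that carried fewer mRNA molecules than the study accepted. In the libraries B1 to B5, each barcode was assigned to a hashtag, and barcodes with a single hashtag (singlets) and 1000 to under 10000 gene UMIs (unique molecular identifiers, each standing for 1 captured RNA molecule) were taken at any mitochondrial share. This rule gave 10689 low-UMI cells out of 24320 singlets and 35985 barcodes. They were set beside the 12983 singlets of the same libraries with 10000 to 90000 UMIs, called deeper cells here. Of the remaining singlets, 518 held fewer than 1000 UMIs and 130 held more than 90000. The cells were selected on their total gene UMIs and on their hashtag call, so the levels of low-UMI and deeper cells are set side by side without a test. Tests were made between culture groups, and of whether a response to a culture condition differed between the 2 depth classes.

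The organoids were grown from small intestinal crypts of wild-type BALB/c mice and cultured for 4 days under 6 conditions. The control group received no T cells and no cytokines. In 4 groups, 100000 allogeneic regulatory T cells (Treg cells, sorted as CD25high FoxP3-GFP+ cells from reporter mice) were added per well together with IL-2 at 30 U/ml and 2 µl CD3/CD28 beads, either without antibody, with anti-IFNγ, with anti-IL-10R, or with both antibodies at 10 µg/ml. The sixth group received recombinant IFNγ at 0.25 ng/ml and recombinant IL-10 at 10 ng/ml (rIFNγ + rIL-10) without T cells. Plates were tilted so that T cells settled apart from the organoids without direct contact, and IL-2 and beads came with the T cells. The organoids were digested, and their cells were stained for EpCAM and with a hashing antibody for each group. Cells negative for propidium iodide, a dye that enters cells with a broken membrane, and positive for EpCAM were then sorted, and the groups were sequenced in pools. Replicate 1 comprised the libraries B1 and B2, replicate 2 the libraries B3 and B4, and replicate 3 the library B5. Each library held all 6 groups, so group and library were not confounded.

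The small intestinal epithelium renews itself from Lgr5+ stem cells at the crypt base, whose progeny divide and mature into enterocytes, goblet, Paneth, enteroendocrine and tuft cells. In droplet sequencing, a barcode with few UMIs and a large mitochondrial share is usually read as a damaged or dying cell, because cytoplasmic mRNA leaks through a broken membrane while mitochondria stay enclosed. A barcode with few UMIs, a small mitochondrial share and much nuclear RNA is usually read as a bare nucleus or as a small cell with little RNA. IFNγ switches on antigen presentation genes.

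The group of each cell rested on a 15-base tag in the hashing antibody, and the 6 tags are printed because all group comparisons depend on telling them apart. Any pair of tags differed at 8 or more positions.
B0301, control: acccaccagtaagac
B0302, Treg: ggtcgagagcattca
B0303, Treg + anti-IFNγ: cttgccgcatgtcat
B0304, Treg + anti-IL-10R: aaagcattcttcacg
B0305, Treg + both antibodies: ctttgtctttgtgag
B0306, rIFNγ + rIL-10: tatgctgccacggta

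Singlet calls were about as frequent below as above the limit. Of the 13754 barcodes with 1000 to under 10000 UMIs, 77.7% were singlets, 5.24% doublets and 17.0% negative, against 79.6%, 14.3% and 6.11% of the 16314 barcodes with 10000 to 90000 UMIs. At 500 to under 1000 UMIs, 89.7% of barcodes carried no called hashtag. Hashtag doublets were removed, and no other doublet caller was run. Low-UMI cells carried a median of 202 hashtag UMIs and deeper cells 217, although their median gene UMIs were 3047 and 42702.

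The libraries did not behave alike, and B5 stood apart in its hashtags. The called tag held a median of 63.1%, 65.1%, 75.7% and 74.0% of a low-UMI cell's hashtag UMIs in B1 to B4, but 32.6% in B5. There the tag B0306 of the rIFNγ + rIL-10 group was present at a median of 177 UMIs in low-UMI cells called for another tag, where it made up 64.9% of their hashtag UMIs, against 14 to 18 UMIs in B1 to B4. In B5 the called tag was not the most abundant tag in 51.6% to 98.1% of the low-UMI cells of the other 5 groups. Over all libraries the median share of the called tag also differed by group. In low-UMI cells it was 27.1% with both antibodies, 46.1% in control and 47.4% with anti-IFNγ. With anti-IL-10R it was 63.0%, in Treg 74.6% and in rIFNγ + rIL-10 95.8%. Cd74, an MHC class II gene that rose strongly with the cytokines, stood in B5 at 64.4 nuclear CPM (UMIs of the gene per-million nuclear-encoded UMIs) in low-UMI control cells and at 2365 in low-UMI rIFNγ + rIL-10 cells, so these groups differed there too. Library B4 had the lowest mitochondrial share. Across libraries, 134 of the 35985 barcodes occurred in 2 or more libraries, and 7 of the 10689 low-UMI cells did.

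Low-UMI cells were mostly cells rich in mitochondrial RNA. Their median mitochondrial share was 66.0% of all UMIs, with a 10th percentile of 25.5% and a 90th percentile of 80.7%, against 4.08% in deeper cells. The number of mitochondrial UMIs was nearly the same in both (median 1897 and 1823), whereas nuclear-encoded UMIs were 895 against 40935. In a median low-UMI cell 527 genes were detected, and 6064 in a deeper cell. After thinning to 1000 UMIs of all genes the medians were 262 and 614 genes. Most of these UMIs were mitochondrial in a median low-UMI cell, so the nuclear-encoded depth was not matched. Low-UMI cells with at most 8.5% mitochondrial UMIs had a median of 649 genes, those with 8.5% to 50% 521, and those over 50% 229.

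**Figure D1:**
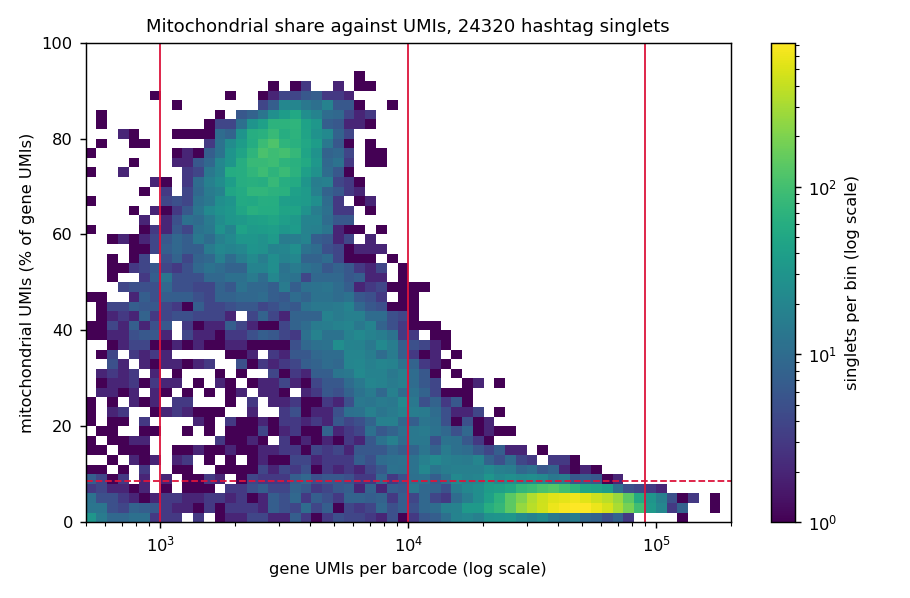
Mitochondrial UMIs as a percentage of gene UMIs (y axis) against gene UMIs per barcode (x axis, log scale) for 24320 hashtag singlets, with the colour giving singlets per bin on a log scale. Solid lines mark 1000, 10000 and 90000 UMIs and the dashed line 8.5%. The dense cloud near 2000 to under 4000 UMIs lies at a median of 71.4%, and the cloud above 20000 UMIs at 4.00%.

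The mitochondrial share did not fall steadily with depth. It was 62.0% at 1000 to under 2000 UMIs, 71.4% at 2000 to under 4000 UMIs, where 58.7% of the low-UMI cells lay, 45% at 4000 to under 7000 and 26.8% at 7000 to under 10000 UMIs. Beyond the limit it was 11.8% at 10000 to under 20000 and 4.00% at 20000 to 90000 UMIs. There was no step at the limits: the 228 cells less than 1000 UMIs below the upper limit had a median of 23.7% and the 179 singlets less than 1000 UMIs above it 19.9%, and the 96 cells less than 100 UMIs above the lower limit had 49.2% and the 91 singlets below it by at most 100 UMIs 43.5%.

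The 3 ranges of mitochondrial share, set at 8.5% (the upper limit of the study) and 50%, differed in the rest of their RNA. The 7723 cells over 50% made up 72.3% of low-UMI cells and held a median of 750 nuclear-encoded UMIs. The 2594 cells between 8.5% and 50% held 3624, and the 372 cells at or below 8.5%, which were 3.48% of low-UMI cells, held 3906. The ranges have no gap between them, since 914 cells lay between 45% and 55%.

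The nucleus-retained RNA Malat1 separated these ranges. Over all cells of a range it stood at 19422 nuclear CPM in cells at or below 8.5%, at 10232 between 8.5% and 50%, and at 2372 over 50%, beside 2741 in deeper cells. No Malat1 UMI was found in 38.6% of cells over 50%, in 3.76% of those at or below 8.5% and in 0.123% of deeper cells. The ribosomal protein genes took a median of 31.3% of nuclear-encoded UMIs in cells over 50% and 20.4% in those at or below 8.5%, against 28.3% in deeper cells. In the median cell Malat1 stood at 9144, 6555 and 1289 nuclear CPM from the lowest to the highest range, and at 2435 in deeper cells. Immediate early genes summed to 3333, 2211 and 1278 nuclear CPM from the lowest to the highest range, against 1391 in deeper cells.

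Tuft and enteroendocrine genes were among the leading genes of the lowest range only. Cells at or below 8.5% led with the tuft cell kinase Dclk1 (414 nuclear CPM against 1.62 in deeper cells), with Nts, Sh2d6 and Rgs13 also among the leading genes. The enteroendocrine list summed to 8378 in them, against 210 between 8.5% and 50%, 202 over 50% and 551 in deeper cells. The tuft list summed to 965, 64.0, 14.3 and 11 in the same order. Cells over 50% led with Gm42418 (15899 against 778) and AY036118, both of which overlap ribosomal RNA repeats, and with Pde1c and Lars2. The stem cell gene Olfm4 was also among their leading genes (2167 against 905). Cells between the limits led with Gm26917, Kcnq1ot1 and Tsix, long noncoding RNAs. Gm26917 and Lars2 were not particular to these ranges. Gm26917 stood at 11294 at or below 8.5%, 2465 between the limits and 559 over 50%, and Lars2 at 411 between the limits and 281 over 50%. The list of rRNA-overlapping loci, which holds Gm26917, summed to 19169, 9681 and 16458 from the lowest to the highest range, against 944 in deeper cells.

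The rare lineages were also counted cell by cell. Cells with UMIs of 4 or more of the 18 enteroendocrine genes numbered 47 of the 372 cells at or below 8.5% (12.6%), 18 of 2594 between the limits and 8 of 7723 over 50%, against 302 of 12983 deeper cells (2.33%). Cells with 4 or more of the 12 tuft genes numbered 11 of 372, 7 of 2594 and 1 of 7723, and 15 of 12983 deeper cells. The low-UMI tuft cells by this count held a median of 7300 UMIs and the deeper ones 16461. In all, 19 such tuft cells lay below the limit and 15 above it, 0.178% and 0.116% of the cells, and none of either came from B3. These counts depend on depth, since cells over 50% held a median of 750 nuclear-encoded UMIs, against 3906, 3624 and 40935 at or below 8.5%, between the limits and in deeper cells. The lower counts over 50% are therefore not read as fewer cells of these lineages.

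The low-UMI cells carried the markers of organoid epithelium. All 12 pan-epithelial genes had UMIs, and their sum was 11681 ± 855 nuclear CPM (SD, n = 18 sums of a group in a replicate) in low-UMI and 9558 ± 317 in deeper cells, with Epcam the most abundant in the former. T cell genes were near 0: of 17, 11 had any UMI, 141 UMIs in all, a sum of 7.57 ± 3.47 nuclear CPM, and the most abundant, Ctla4, had 48 UMIs. Cd3d, Cd3e, Cd3g, Trac, Trbc1 and Foxp3 had none. The T cell sum was 4.54 in control, which met no T cells, and 5.73 in the Treg group. No low-UMI cell and 5 of 12983 deeper cells carried UMIs of 4 or more T cell genes. With a median of 895 nuclear-encoded UMIs a cell, this count says little of T cells below the limit, and by counting error alone the share of low-UMI cells with 4 such genes could reach 0.0281%. Markers of stromal, endothelial, myeloid, B and red cells had 110 UMIs in all, led by the myeloid gene Cd68 with 46, with Col3a1 and Pdgfra at 0.

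Levels of genes were compared in 18 pairs of sums, low-UMI and deeper cells of the same group and replicate. Of 8040 genes with at least 10 CPM (UMIs per-million UMIs of all genes) in either class, 77 were over 2-fold higher in low-UMI cells (0.958%) and 2990 over 2-fold lower (37.2%), with a median log2 ratio of −0.78. Since mitochondrial RNA filled the low-UMI cells, ratios of nuclear CPM were also taken. On that scale the median was 0.21, 766 of 8027 genes were over 2-fold higher (9.54%) and 3 over 2-fold lower (0.0374%). Lists are given relative to the median of all nuclear genes. Cells over 50% mitochondrial UMIs, 72.3% of low-UMI cells, supplied 6492678 of their 17926937 nuclear-encoded UMIs. These levels therefore give more weight to the other low-UMI cells.

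The largest differences were those of the mitochondrial genome. All 13 protein genes were higher in 18 of 18 pairs, with log2 ratios of CPM from 3.14 for mt-Co1 to 3.86 for mt-Atp6, a subunit of ATP synthase. The level of mt-Atp6 was 105295 ± 16891 against 7212 ± 663 CPM (SD, n = 18). Together the 13 genes took 416087 to 618071 CPM in the 18 low-UMI sums (median 559524) and 42210 to 49519 in the deeper sums, so the ranges were far apart.

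Among genes with at least 50 CPM in either class, the 10 lowest in low-UMI cells by CPM were each lower in 18 of 18 pairs. Ybx1, an mRNA-binding protein, stood at 342 against 1319 CPM (log2 ratio −1.95), Set, a histone chaperone, at a ratio of −1.91, Hnrnpab at −1.96, and Lyar and Npm3, nucleolar proteins, at −2.05 and −1.97. Tpm3-rs7 (−2.08), a copy of Tpm3 whose reads may be shared with its parent gene, Hdgf (−1.93), Cpsf2 (−1.93), Pa2g4 (−1.90) and Ptges3 (−1.89) completed them. In nuclear CPM the log2 ratios of these genes were smaller, from −1.07 for Tpm3-rs7 to −0.86 for Ptges3, with Ybx1 at 737 against 1381.

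**Figure D2:**
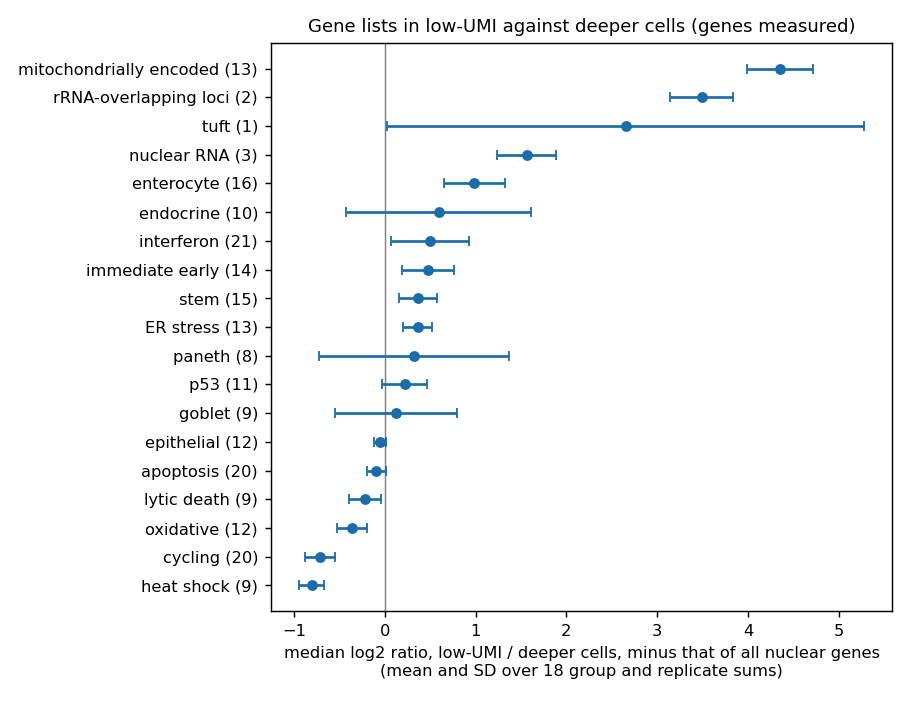
Median log2 ratio of low-UMI over deeper cells for each gene list, minus that of all nuclear genes, with the mean as a point and the SD over 18 sums as a bar, and the number of genes measured in brackets. Mitochondrial genes (4.35) and rRNA-overlapping loci (3.49) lay highest, and heat shock (−0.80) and cell cycle (−0.71) genes lowest. The tuft list, of which only 1 gene was measured, stood at 2.65 and nuclear RNA at 1.56.

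Among lineage lists, enterocyte genes were relatively higher in low-UMI cells and cell cycle genes relatively lower, in 18 of 18 pairs each. The enterocyte median was 0.99 ± 0.33 (SD, n = 18) above that of all nuclear genes, with 10 of 16 genes over 2-fold higher. The list was not uniform, since the brush border enzyme Sis stood at 1180 against 478 nuclear CPM, while Fabp1, a fatty acid carrier, stood at 2313 against 2596 and Rbp2 at 948 against 1133. The cell cycle median was −0.71 ± 0.16, with Hmgb2 at 1194 against 1843 and Top2a, a topoisomerase of dividing cells, at 262 against 383 nuclear CPM. Stem cell genes were 0.37 ± 0.21 above the median of all nuclear genes, higher in 17 of 18 pairs. Olfm4, which marks stem cells, stood at 1523 against 899 and Cdca7 at 93.4 against 138.

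The goblet, Paneth and enteroendocrine lists varied between the sums by more than their mean distance from 0. The goblet median was 0.12 ± 0.67, the Paneth median 0.32 ± 1.04 and the enteroendocrine median 0.60 ± 1.02. The Paneth defensin gene Defa24 stood at 1825 against 1697 and the goblet gene Spink4 at 1346 against 1139 nuclear CPM. In the tuft list only Dclk1 was abundant enough to be measured, at 41.6 against 1.64. Its own log2 ratio of nuclear CPM was 2.45 ± 3.13, and it was higher in 12 of 18 pairs. The value of the list relative to all nuclear genes was 2.65 ± 2.63, above 0 in 16 of 18 pairs. Dclk1 reached 10 CPM in low-UMI cells only (20.5 against 1.57), so no difference is read from these ratios. The sum of the tuft list was higher in 17 of 18 pairs, at 117 ± 128.6 against 11.4 ± 7.69 nuclear CPM.

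Heat shock and death lists lay near or below the median of all nuclear genes. Heat shock genes were the lowest of all lists, at −0.80 ± 0.14 in 18 of 18 pairs, with the chaperone Hsp90ab1 at 1426 against 2256 and the mitochondrial chaperone Hspd1 at 603 against 1055 nuclear CPM. Caspases and Bcl2 family genes were close to the median of all nuclear genes (−0.09 ± 0.11), with 0 of 20 over 2-fold higher or lower on this scale. Cycs, the cytochrome c that triggers caspase activation when it leaves the mitochondrion, stood at 331 against 499. Genes of necroptosis and pyroptosis were at −0.22 ± 0.18, with the inflammasome adaptor Pycard at 321 against 464.

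The other stress lists lay on both sides of the median of all nuclear genes. Oxidative stress and iron genes were at −0.36 ± 0.17, with the ferritin Fth1 at 2287 against 3476. Targets of p53 were at 0.22 ± 0.25, with Bax at 145 against 198 and Cdkn1a, a cell cycle inhibitor, at 105 against 65.1. The unfolded protein and integrated stress response was at 0.36 ± 0.16 in 18 of 18 pairs, with the endoplasmic reticulum chaperone Hspa5 at 614 against 324 and Atf4 at 216 against 141. Immediate early genes were at 0.48 ± 0.29 in 18 of 18 pairs, with Fos at 246 against 213. List sums of cells over 50% mitochondrial UMIs lay nearer to deeper cells than those of cells between 8.5% and 50%. For the unfolded protein list they were 1032 and 1869 nuclear CPM, against 982 in deeper cells. They were 539 and 746 against 571 for p53 targets, 7219 and 4297 against 7463 for oxidative genes, and 5548 and 3862 against 6785 for heat shock genes. Low-UMI cells with at most 8.5% mitochondrial UMIs gave stem cell genes at −0.33 and interferon genes at −0.22, against 0.37 and 0.50 over all low-UMI cells. These values rest on the 11 of 18 sums with at least 10 such cells, none of them from control, so the groups behind both sets of values are not alike.

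The shares of cells with a UMI of a marker were taken after each cell had been thinned to 1000 UMIs, of which only a minority are nuclear-encoded in low-UMI cells. Epcam had a UMI in 52.2% of low-UMI and 79.9% of deeper cells (78.8% and 100.0% unthinned). Olfm4 had one in 33.2% and 31.3% (54.1% and 72.8% unthinned), and in 4.25% of the enterocyte-like cells described next. Fabp1 had one in 51.3% and 29.7% (83.7% and 95.3% unthinned). The levels of Olfm4 (696 against 859 CPM) and Fabp1 (1056 against 2478 CPM) contradict these thinned orders, so no order was read from either gene. For Lyz1, a Paneth lysozyme, the shares were 4.27% and 4.03%, beside 2.00% in enterocyte-like and 41.0% in Paneth-like cells. Its unthinned shares (10.3% and 31.7%) and its level (73.1 against 162 CPM) ran the other way, so no order was read from it either. For Dclk1 the shares were 0.178% and 0.0847% (0.243% and 0.277% unthinned), beside 0 of 400 enterocyte-like and 94.4% of tuft-like cells. Lyz1 and Dclk1 were among the markers that named the Paneth-like and tuft-like clusters, so their high shares there followed from the naming.

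Clustering of the low-UMI cells without mitochondrial genes gave 11 clusters, of which 4 could be named from markers. The enterocyte-like and enteroendocrine-like names depended on the settings, with 0 and 53 cells at a lower resolution of 0.5 and 121 and 50 when mitochondrial genes were kept. Paneth-like cells (422) led with Defa30, Defa24 and Lyz1, enterocyte-like cells (400) with Apoa4, Apoa1 and Sis, enteroendocrine-like cells (99) with Chgb, Gip and Chga, and tuft-like cells (18) with Dclk1, Sh2d6 and Rgs13. Their median mitochondrial shares were 58.8%, 32.9%, 11.3% and 8.10%. The Paneth-like cluster also had the goblet gene Fcgbp among its leading genes. Its goblet list summed to 39998 nuclear CPM beside 51911 for the Paneth list, so the cluster did not separate goblet from Paneth cells. No tuft-like cell came from library B3. No library supplied more than 42.6% of any cluster, so none was a single library.

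**Figure D3:**
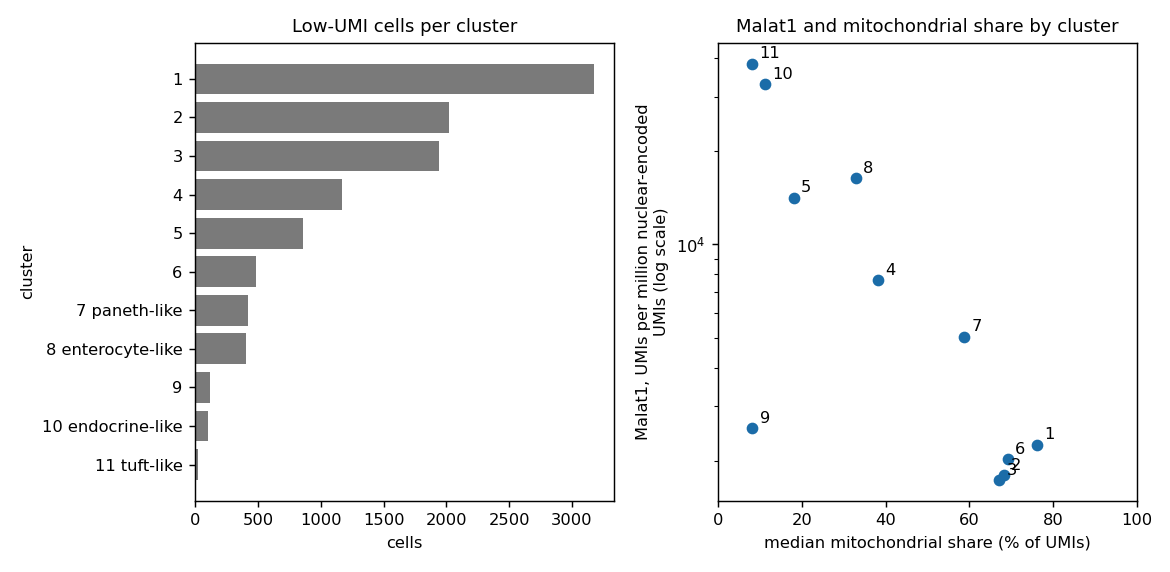
Left, low-UMI cells in each of 11 clusters; right, Malat1 in nuclear CPM (log scale) against the median mitochondrial share of each cluster. The tuft-like and enteroendocrine-like clusters lie at 8.10% and 11.3% with Malat1 at 38385 and 32978, and the largest cluster (3178 cells) at 76.1% with 2251.

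The 7 unnamed clusters held the bulk of the cells. The largest (3178 cells, median mitochondrial share 76.1%) led with Pde1c, Ntm and Gm42418, the next (2018 cells, 68.2%) with Ttr, Gkn3 and the stem cell gene Olfm4, and the next (1937 cells, 67.1%) with histone and division genes (Hist1h2ae, Pclaf, Birc5). Another 1168 cells at 38.3% led with Kcnq1ot1 and Tsix, and 854 cells at 18.2%, which included 187 of the 372 cells at or below 8.5%, with Gm26917, Peak1 and Cldn4. A cluster of 480 cells led with Ly6a, H2-Eb1, H2-Aa, Iigp1 and Cxcl9, targets of IFNγ. The last held 115 cells at 8.19%. Fewer than 3 markers of any lineage were among the leading 10 genes of each of these clusters.

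The first group comparison asked whether T cells or cytokines changed how many cells fell below the limit. This share differed more between libraries than between groups. It was 52.8% and 49.7% of singlets in B1 and B2, 28.3% and 28.6% in B3 and B4, and 53.6% in B5. In control, 53.5%, 24.6% and 53% of singlets were low-UMI cells in replicates 1 to 3. In the Treg group the shares were 54.4%, 29.4% and 54.1%, and in the rIFNγ + rIL-10 group 45%, 34.7% and 53.2%. All groups overlapped with control, and replicate 2 was lowest in all 6 groups.

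The differences from control were smaller than the spread between replicates of a group, and no difference passed a test. The means were 43.7 ± 16.6% in control (SD, n = 3), 46.0 ± 14.4% in Treg, 44.2 ± 16.7% in Treg + anti-IFNγ, 45.7 ± 14.0% in Treg + anti-IL-10R, 41.8 ± 14.2% in Treg + both antibodies and 44.3 ± 9.28% in rIFNγ + rIL-10. Two-sided exact permutation tests over 3 against 3 replicates gave p = 0.5, 0.6, 0.7, 0.6 and 0.9, each at least 0.875 after Benjamini-Hochberg adjustment over the 5 groups, and cannot go below 0.1. Since the groups of a replicate share libraries, differences were also taken within replicates. For Treg they were 0.924, 4.78 and 1.07 percentage points (mean 2.26, SD 2.19) and for Treg + anti-IFNγ 0.845, 0.364 and 0.361 (mean 0.524, SD 0.278), above their SD. The other 3 groups had both signs. With the replicate as a block, exact permutation of signs gave p = 0.25, the smallest it can give, for Treg and Treg + anti-IFNγ, and 0.5 to 0.75 for the others, 0.625 to 0.75 after adjustment over 5. Without replicate 2 the Treg difference was 0.995 and the cytokine difference changed from 0.579 to −4.17 percentage points. A share counts only cells that passed the sort for intact cells.

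The mitochondrial share of low-UMI cells was lower than in control in all 3 replicates of 4 groups, and no difference passed a test. The medians were 67.1%, 65.6% and 70.4% in control replicates 1 to 3, 65.5%, 59.6% and 68.0% in Treg, 66.3%, 59.7% and 67.9% in Treg + anti-IFNγ, 65.8%, 52.2% and 69.6% in Treg + anti-IL-10R, 68.1%, 61% and 69.7% in Treg + both antibodies and 63.7%, 56.3% and 69.0% in rIFNγ + rIL-10. Mean differences from control ran from −1.43 percentage points with both antibodies to −5.12 with anti-IL-10R, and the difference was −4.71 for the cytokines. The SD of the paired differences was 2.33 for Treg, 2.60 for anti-IFNγ, 7.12 for anti-IL-10R, 2.82 for both antibodies and 4.08 for the cytokines (n = 3), so those of Treg, anti-IFNγ and the cytokines exceeded it. Exact permutation tests gave p = 0.4 to 0.8, 0.625 to 0.8 after adjustment over 5. With the replicate as a block, exact permutation of signs gave p = 0.25, the smallest it can give, in these 3 groups and with anti-IL-10R, and 0.75 with both antibodies, 0.3125 and 0.75 after adjustment. Over summed UMIs the cytokine difference was −8.45 (48.2% against 56.7%, exact permutation p = 0.2), and without replicate 2 the differences were −1.01 for anti-IL-10R, −1.67 for anti-IFNγ, −2.03 for Treg, −2.43 for the cytokines and 0.120 for both antibodies. Cells over 50% were 76.6 ± 6.11% of low-UMI cells in control and 63.3 ± 10.6% in rIFNγ + rIL-10 (SD, n = 3).

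**Figure D4:**
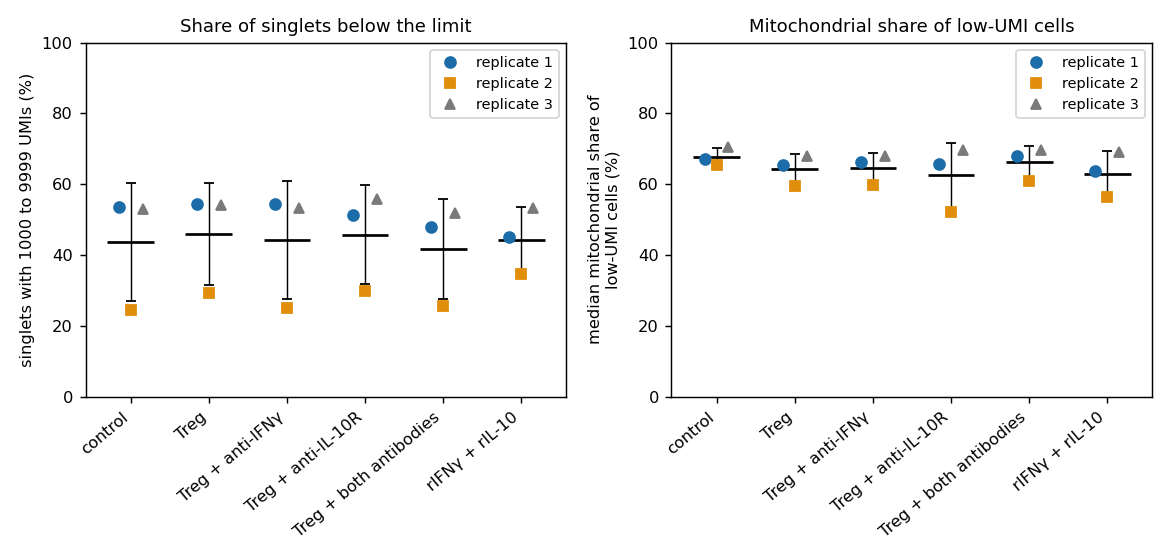
Left, the percentage of singlets with 1000 to under 10000 UMIs; right, the median mitochondrial percentage of low-UMI cells, for 6 groups with a symbol per replicate, a line for the mean and a bar for the SD (n = 3). Replicate 2 is lowest in every group on the left, and the groups overlap in both panels.

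The main group comparison asked which genes of the low-UMI cells responded. UMIs were summed per group and replicate and tested with edgeR, which compared 3 sums with 3, with the replicate as a block and 10011 genes tested. With this block, the p-values measure how alike the group differences were across the 3 biological replicates, not the whole spread between replicates. Since whole sums were compared, a change in the number of cells of a type cannot be told apart from a change of RNA within them.

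Low-UMI cells carried a strong response to rIFNγ + rIL-10. In the edgeR quasi-likelihood test with Benjamini-Hochberg adjustment, 557 genes rose (5.56% of those tested) and 625 fell (6.24%) against control. Of the interferon response list, 35 of 36 tested genes rose and 0 fell, with a median log2 fold change of 2.95. The remaining gene, Irf7, stood at 1.31 with an adjusted p of 0.142. All genes had a median of 0.01. The count of called genes was 1182 in all, 196 without the replicate block (160 higher and 36 lower) and 726 in DESeq2 (303 and 423). Leaving out replicate 1 gave 333 (175 and 158) and leaving out replicate 3 gave 732 (328 and 404).

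Antigen presentation genes were among the largest rises. Cd74, the chaperone of MHC class II molecules, was at 13.5, 48.2 and 32.4 normalised CPM (with library sizes adjusted by TMM) in control and at 757, 706 and 1109 in rIFNγ + rIL-10 replicates 1 to 3, without overlap. Its log2 fold change was 5.05 ± 0.39 (SE, edgeR adjusted p = 2.28e-09). The class II genes H2-Ab1, H2-Aa and H2-Eb1 rose by 4.96, 4.90 and 4.65 on the log2 scale, and the peptide transporter Tap1 by 4.21. The class I genes H2-D1 and H2-K1 and their partner B2m, abundant in control, rose by 1.46, 1.35 and 1.23.

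Other targets of IFNγ rose too. The GTPase Iigp1 was at 2.25, 4.82 and 0.809 normalised CPM in control and at 165, 27.1 and 52.9 with the cytokines, a log2 fold change of 5.14 ± 0.42 (SE, edgeR adjusted p = 3.90e-09). The related GTPase Igtp rose by 4.53 and the transcription factor Irf1 by 2.85. Xdh, xanthine dehydrogenase, rose by 3.01. Each of these genes was higher than control in 3 of 3 replicates.

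Some stem and cell cycle genes fell, and their count depended on the scaling. Olfm4 was at 1039, 761 and 657 normalised CPM in control and at 268, 324 and 337 with the cytokines, a log2 fold change of −1.34 ± 0.20 (SE, edgeR adjusted p = 4.79e-05). The counts of both lists stand beside 6.24% of all genes tested that fell and 5.56% that rose. Of 15 stem genes tested, 5 fell, among them Smoc2 (−0.79) and Slc12a2 (−0.59), and 1, Cd44, rose (0.50). Library sizes without TMM, the normalisation used here, gave 1 lower and 2 higher (beside 1.05% lower and 26.1% higher of all genes tested). Lrig1 was at −0.24 and Rnf43 at −0.13 without a call. Of 20 cell cycle genes, 5 fell, among them Hmgb2 (−0.65), Cenpa (−0.54), Ube2c (−0.43) and Birc5 (−0.41), whereas without TMM 1 fell and 1 rose, while Top2a was at 0.04 and Mki67 at −0.05.

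Of the lineage lists, that of enterocytes held the most genes that rose. The counts stand beside 5.56% of all genes tested that rose and 6.24% that fell, and nothing is read from those of 1 or 2 genes. Of 16 enterocyte genes, 9 rose and 0 fell (median 0.77), among them Sis (1.19), the sugar transporter Slc5a1 (1.09), Apoa4 (1.10, higher in 2 of 3 replicates) and Mttp (0.98), which loads lipoproteins. Fabp1 was at −0.15 and Rbp2 at 0.02. Of 12 goblet genes, 0 rose and 2 fell, Zg16 (−1.88) and Agr2 (−0.70), against 0 and 1 without TMM, and Spink4 and Tff3 were at −0.45 and −0.29. Of 9 Paneth genes, the matrix protease Mmp7 rose (1.62) and Defa24 was at 0.43. Of 13 enteroendocrine genes, the hormone genes Cck (2.91, higher in 2 of 3 replicates) and Pyy (4.59) rose, and of 8 tuft genes 0 passed in either direction. Epcam stood at −0.01 (edgeR adjusted p = 0.975), and 1 of 12 pan-epithelial genes, Tspan8, fell (−0.43), whereas 7 rose without TMM.

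Among genes with at least 50 CPM in either group, the 10 largest falls with all 3 replicates on the same side were those of the lectin genes Reg1 (−2.48) and Zg16, Olfm4, Ifi27l2b (−1.12), Mcee (−1.07), Fos (−1.07), Clca3b (−1.05), Gm1123 (−1.01), Csrp2 (−0.96) and Pglyrp1 (−0.90), a peptidoglycan recognition protein.

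The stress and death lists are to be read against the 5.56% of all genes tested that rose and the 6.24% that fell, and nothing is read from counts of 1 or 2 genes a list. Of 21 apoptosis genes 2 rose and 0 fell, with Cycs at −0.26. Of 15 p53 targets the death receptor Fas rose (1.74) and Bax fell (−0.47), and of 10 genes of lytic death Nlrp6 rose (0.48), with Casp1 at 0.35 and Pycard at −0.26. Of 16 genes of the unfolded protein and integrated stress response, Hspa5 (0.32) and Dnajb9 (0.76) rose. Of 14 oxidative stress genes the heme oxygenase Hmox1 (3.05) and the cystine transporter Slc7a11 (1.42) rose and Prdx1 fell (−0.40). Of 10 heat shock genes Hspe1 fell (−0.50) with Hspa8 at 0.00, whereas without TMM 0 fell and 2 rose. Without TMM, where 26.1% of all genes tested rose, the apoptosis list stood at 11 higher and 0 lower, the lytic death list at 5 and 0, the p53 list at 3 and 0, the unfolded protein list at 11 and 0 and the oxidative list at 6 and 0.

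Some immediate early and nuclear RNAs and the mitochondrial RNAs also changed. Of all genes tested, 6.24% fell and 5.56% rose, against 1.05% and 26.1% without TMM. Of 15 immediate early genes 4 fell, Fosb (−1.58), Fos, Egr1 (−0.71) and Ier2 (−0.59), and Ier3 rose (0.88), against 2 lower and 4 higher without TMM. All 13 mitochondrial genes fell (median −0.59), among them mt-Atp6 at −0.72, and 12 fell without TMM. Of 3 nuclear RNAs Malat1 (0.55) and Neat1 (0.80) rose, and Kcnq1ot1 was at −0.51 without a call (higher in 1 of 3 replicates). Of 2 rRNA-overlapping loci Gm26917 rose (1.34), and Gm42418 was at 0.25 without a call. Beside these values stands the smaller share of cells over 50% mitochondrial UMIs in this group (63.3% against 76.6%), whose part in them was not tested. When only cells over 50% were summed, 52 genes rose and 20 fell of 5547 tested, and with cells between 8.5% and 50% the numbers were 345 and 265 of 8596, both settings chosen after seeing the data.

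The balance of higher and lower genes differed between settings. Besides the counts given above, it was 533 higher and 401 lower without replicate 2, and when genes of low count were kept it was 659 and 504. TMM, which sets library sizes by the bulk of genes, gave 557 higher and 625 lower genes, and library sizes without TMM gave 2613 and 105, with the median of all genes moved from 0.01 to 0.41. Without TMM the interferon list stood at 36 higher and 0 lower, the enterocyte list at 12 and 0 and the mitochondrial list at 0 and 12. The medians of the stem (0.03) and cell cycle (0.04) lists without TMM also lay below that of all genes (0.41).

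Treg co-culture gave 0 genes higher (0%) and 0 lower (0%) in low-UMI cells in the edgeR quasi-likelihood test with Benjamini-Hochberg adjustment, with 862 of 10011 genes at an unadjusted p under 0.05 and 66 called by DESeq2. Without replicate 1, 2 or 3 the count was 7, 1 and 1. The interferon list had a median log2 fold change of 0.95 over its 36 genes, with 0 called. Summed over the list, low-UMI cells of the Treg group held 1734, 3256 and 2083 nuclear CPM in replicates 1 to 3, against 1376, 1736 and 1413 in control, so replicate 1 of the Treg group lay within the control range, while the Treg value was the higher one in 3 of 3 replicates. Cd74 was at 56.5, 478 and 188 in Treg and at 27.7, 101 and 64.4 in control, again higher in 3 of 3 replicates without a call. The mitochondrial genes had a median of −0.34 with 0 called, and Malat1 was at 0.40 without a call.

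Each co-culture with antibody was compared with control. With anti-IL-10R, 4 genes rose (0.04%) and 1 fell (0.00999%), whereas DESeq2 called 20 higher and 100 lower. The 4 were Cd74 (2.48 ± 0.40 SE, edgeR adjusted p = 0.00545), H2-DMa (1.83), which loads peptides on class II molecules, H2-Ab1 (2.42, adjusted p = 0.0450) and the enterocyte peptidase Anpep (1.37), and the lower one was Ttr (−1.36), a thyroid hormone carrier, named after its value was seen. Cd74 stood at 45.9, 317 and 202 normalised CPM in the 3 replicates, all but the first above the control range of 13.5 to 48.2. Without the replicate block 0 genes passed, without replicate 1 the count was 17 and without replicate 3 it was 0. With anti-IFNγ 0 genes rose (0%) and 0 fell (0%) in the edgeR test, with 697 at an unadjusted p under 0.05 and 0 in DESeq2, and with both antibodies again 0 (0%) and 0 (0%), with 586 and 0. Without replicate 1 these counts were 2 and 8. The interferon list summed to 1419, 1594 and 1493 nuclear CPM with anti-IFNγ and to 1401, 1683 and 1691 with both, within the control range of 1376 to 1736 in each replicate. With anti-IL-10R it summed to 1918, 3788 and 2963, above that range in each. Differences between the antibody groups were not tested.

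The same responses were measured in the deeper cells, which share their groups and libraries but not their barcodes. There 2879 of 15103 genes rose with rIFNγ + rIL-10 (19.1%) and 2834 fell (18.8%). The sums were larger, since deeper cells of a group held 15297872 to 42792232 nuclear-encoded UMIs a replicate and low-UMI cells 497094 to 1664500, so the counts of genes do not compare the responses. The responses themselves were compared as a difference, with both depth classes of each group and replicate paired.

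Of 14046 genes, the response to rIFNγ + rIL-10 was higher in low-UMI than in deeper cells for 11 (0.0783%) and lower for 19 (0.135%) in the edgeR quasi-likelihood test with Benjamini-Hochberg adjustment. Without the pairing 0 genes passed, and DESeq2 gave 11 higher and 226 lower. Of the 19 lower ones, 8 were on the interferon list and 4 on the goblet list. In separate fits of each depth class, Cd74 rose by 5.05 in low-UMI and 8.88 in deeper cells on the log2 scale. The paired fit gave a difference of −3.53 ± 0.34 (SE, edgeR adjusted p = 3.44e-08). Here and below, differences come from the paired fit and need not equal those of the separate values. The immunoproteasome gene Psmb8 rose by 2.37 and 5.44 (−3.01), and H2-Aa, H2-Eb1, H2-Ab1, Igtp, Psmb9 and Irf1 differed by −3.60, −3.68, −2.90, −3.58, −2.0 and −1.40. In the list, 8 of 45 genes differed, all lower in low-UMI cells, and the median difference was −0.60 against 0.05 over all genes.

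**Figure D5:**
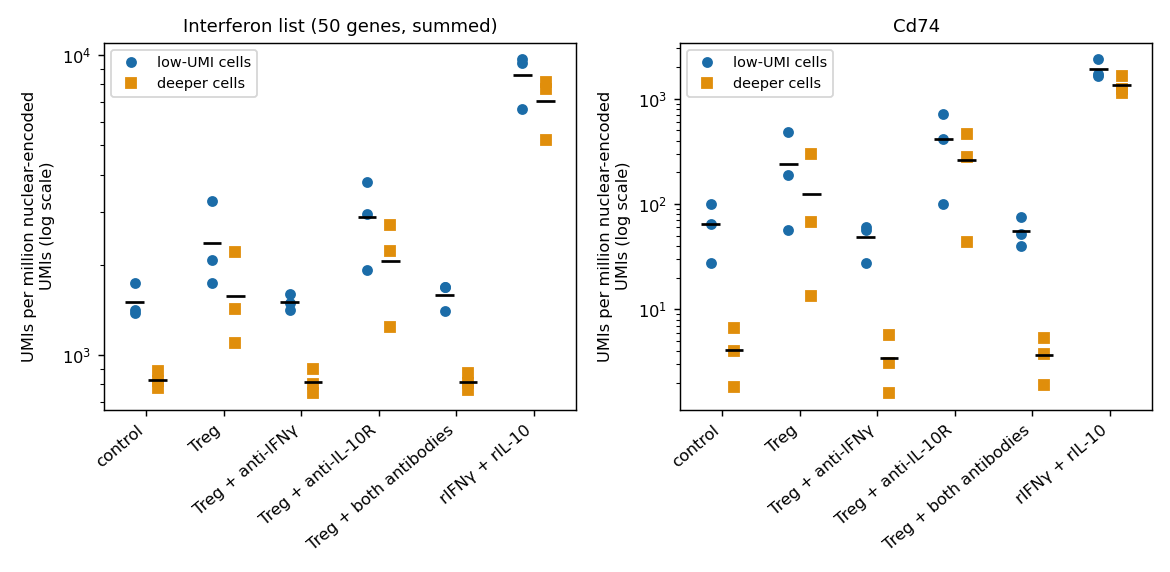
The interferon list summed (left) and Cd74 (right) in nuclear CPM, both on log axes, in low-UMI and deeper cells of 6 groups, with a point per replicate and a line for the mean. For Cd74 the control means are 64.2 in low-UMI and 4.14 in deeper cells, and the rIFNγ + rIL-10 means 1916 and 1340.

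In control, Cd74 was higher in low-UMI than in deeper cells on the nuclear CPM scale. It stood at 27.7, 101 and 64.4 nuclear CPM in low-UMI control cells and at 1.83, 6.60 and 4.00 in deeper control cells, without overlap. With rIFNγ + rIL-10 the values were 1729, 1653 and 2365 in low-UMI and 1226, 1144 and 1650 in deeper cells, a 29.8-fold and a 323-fold ratio to control. On the scale of normalised CPM, which the test used, the cytokine values were lower in low-UMI cells, at 757, 706 and 1109 against 1094, 1092 and 1701 for Cd74 and at 106, 70.8 and 190 against 449, 323 and 747 for Psmb8. The interferon list was at 1508 ± 198 and 826 ± 53.5 in control and at 8586 ± 1697 and 7038 ± 1593 with the cytokines (SD, n = 3). Barcodes of 500 to under 1000 UMIs without a called hashtag, taken here as a measure of free RNA and debris of all groups, held Cd74 at 141, 122, 237, 252 and 270 nuclear CPM in B1 to B5, above the low-UMI control cells of each library. The part of free RNA in the control values was not tested. After thinning to 1000 UMIs, 2.43% of low-UMI and 0.525% of deeper control cells had a Cd74 UMI, against 37.8% and 66.7% with the cytokines (6.57%, 14.1%, 58.3% and 99.1% unthinned, at median depths of 2876.5, 43248, 3286 and 41008 UMIs).

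Of 14 goblet genes 4, and of 13 Paneth genes 1, had a lower response in low-UMI cells by the test. Of all 14046 genes tested, 19 (0.135%) did, and nothing is read about the Paneth list from 1 gene. Agr2, a protein disulfide isomerase of goblet cells, fell by 0.70 in low-UMI cells and rose by 1.19 in deeper cells, a difference of −1.81. Its values were 96.0, 221 and 181 normalised CPM in control and between 84.9 and 122.9 with the cytokines in low-UMI cells, and 125, 192 and 305 against 405, 350 and 586 in deeper cells. Tff3 was at −0.29 and 1.23, Spink4 at −0.45 and 1.23, Fcgbp at −0.03 and 1.40 and the Paneth gene Lyz1 at 0.60 and 2.44, with differences of −1.49, −1.67, −1.40 and −1.84. The other named genes with a smaller response were AW112010 (−2.59), Plac8 (−1.08), Rnase4 (−1.02), Sec61b (−0.89), a subunit of the secretory translocon, and Bcl2l15 (−1.59).

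Genes with a higher response in low-UMI cells were few. Gm26917 rose by 1.34 in low-UMI cells and was at −0.41 in deeper cells (difference 1.70). Cd44 rose by 0.50 and was at −0.31 (0.84), Rdm1 was at 0.90 and −0.55 (1.5), Clca4b at −0.77 and −1.76 (1.08), Tcim at −0.27 and −1.28 (1.08) and Pdgfa at −0.44 and −1.20 (0.85). For the last 3, the higher response was a smaller negative value. A further 5 genes with a higher response (Mme, Edn1, Hexim1, Dusp1 and Sprr2f) and 1 with a lower response (Art2b) passed the test and fell outside the rule for named genes.

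For Treg co-culture, 0 genes had a higher response in low-UMI cells (0%) and 4 a lower response (0.0285%), all of them interferon targets: Cd74 (−2.68, edgeR adjusted p = 3.94e-05), Psmb8 (−2.21), Irf1 (−1.47) and Psmb9 (−1.19). Without the pairing 0 genes passed, and without replicate 1, 2 or 3 the count was 8, 1 and 7. Cd74 in deeper cells was at 13.3, 297 and 67.0 nuclear CPM in Treg and at 1.83, 6.60 and 4.00 in control, and it was higher with Treg in 3 of 3 replicates in both depth classes. The comparisons with Treg and with rIFNγ + rIL-10 share the control sums.

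The interferon list was higher with the cytokines in both ranges of mitochondrial share with enough cells. In cells over 50%, the list went from 1615 nuclear CPM in control to 5836 with rIFNγ + rIL-10, a ratio of 3.61, and in cells between 8.5% and 50% from 1414 to 10309, a ratio of 7.29. The difference between these ratios was not tested. At or below 8.5%, control held 7, 9 and 4 cells in the 3 replicates, too few for a test.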

How the data were processed

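The authors deposited raw UMI counts of genes and hashtags per barcode from Cell Ranger 7.0.0 (mm10), which counts intronic reads under its standard options; the study then used Seurat 4.0.5. The libraries B1 to B5 held 128917456 to 223155304 gene UMIs each. Library B6, which the study excluded, was not used. The study states a higher number of cells than the 35985 barcodes of these libraries. The members and gene lists were chosen with earlier results of these data known.

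Hashtags were called per library with HTODemux of Seurat 5.3.0 (CLR, quantile 0.99). UMIs were summed per group and replicate and tested with edgeR 4.0.16 (quasi-likelihood, TMM, replicate as block, Benjamini-Hochberg, threshold 0.05), after a check on simulated data. The difference of responses was an interaction in a fit with low-UMI and deeper sums paired. Deviations of sums from their group means correlated at 0.311 on average within a replicate (0.0949 to 0.554) and at −0.155 between replicates, and the labels give the sums of a replicate the same libraries. Named genes were the 10 largest called changes in each direction with at least 50 CPM and all replicates on the same side, and of each list the 4 most abundant members that passed and 2 that did not (against deeper cells, 10 in each direction and 4 of each list). Clusters came from leidenalg 0.10.2 on 30 principal components of 2000 variable genes, and took a name with 3 or more markers of a list among the top 10 genes. DESeq2 1.42.0, other filters, scalings and left-out replicates were alternatives. Intervals and limits of a count of 0 cover counting error only. Some items that the rule would name are not reported here.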

Additional observations from a re-analysis of the deposited data

Results flagged for a closer look

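In 5 libraries, B4 had a median mitochondrial share in low-UMI cells of 52.9%, far from the other libraries (gap over range 0.760), and B5 a share of hashtag UMIs on the called tag in deeper cells of 39.9% (0.963). Of 9 library measures 2 held such a distant value, and chance gives about 1 in 20 groups.

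The response to rIFNγ + rIL-10 differed between low-UMI and deeper cells for 30 genes, and the response to Treg cells for 4, by the edgeR interaction test. For rIFNγ + rIL-10 the differences (low-UMI minus deeper, log2) were −3.01 for Psmb8, −3.53 for Cd74, −2.0 for Psmb9, −2.59 for AW112010, −1.81 for Agr2, −3.60 for H2-Aa, −1.49 for Tff3, −3.68 for H2-Eb1, −1.08 for Plac8, −2.90 for H2-Ab1, −1.40 for Irf1, −1.67 for Spink4, −1.84 for Lyz1, −1.02 for Rnase4, −1.40 for Fcgbp, −0.89 for Sec61b, −1.59 for Bcl2l15 and −3.58 for Igtp. They were 1.70 for Gm26917, 1.08 for Clca4b, 0.85 for Pdgfa, 1.5 for Rdm1, 0.84 for Cd44 and 1.08 for Tcim. For Treg cells they were −2.21 for Psmb8, −2.68 for Cd74, −1.47 for Irf1 and −1.19 for Psmb9. Their causes were not tested.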

How the results depend on the processing

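Counts of genes changed by rIFNγ + rIL-10 in low-UMI cells went from 1182 to 196 without the replicate block, 726 with DESeq2, 2718 without TMM and 333 to 934 without a replicate. Settings chosen after seeing the data gave 72 with cells over 50% mitochondrial UMIs, 610 with 8.5 to 50%, and 807 to 962 without 1 of the libraries B1 to B4. For anti-IL-10R the count of 5 became 0 without the block, 120 with DESeq2, 89 without a filter on low counts and 0 to 17 without a replicate. For Treg the count of 0 became 66 with DESeq2, 83 without the filter, 1 with cells over 8.5%, 2 without TMM, 2 with cells over 50% (added after seeing the data) and 1 to 7 without a replicate. Anti-IFNγ gave 8 without the filter and 0 to 2 without a replicate, and both antibodies 33 and 0 to 8. The differences of responses lost all genes without the block (0 and 0). The cytokine count of 30 was 17 without TMM, 91 without the filter, 237 with DESeq2 and 27 to 29 without a replicate, and the Treg count of 4 was 2, 43, 7 without mitochondrial genes and 1 to 8 without a replicate.

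The cytokine difference in the share of low-UMI cells reversed with 2000 to under 10000 UMIs (−0.327) and ran from −4.17 to 5.14 without a replicate. The mitochondrial difference with both antibodies ran from −2.64 to 0.120. With cells at or below 8.5% only (11 sums, none from control), list medians were −0.33 stem, −1.01 cell cycle, 0.25 enterocyte, −1.05 goblet, −1.47 Paneth, 1.66 enteroendocrine, 0.035 epithelial, −0.19 mitochondrial, 1.92 nuclear RNA, 4.54 rRNA-overlapping, 1.43 immediate early, −0.37 heat shock, 0.56 p53, −0.20 apoptosis, −0.57 lytic death and −0.22 interferon. The oxidative median ran from −0.39 to −0.17 without a replicate. Differences in marker shares, low-UMI minus deeper, were without thinning −21.2 for Epcam, −29.0 for Malat1, −18.8 for Olfm4, −11.5 for Fabp1, −21.4 for Lyz1, −4.19 for Chgb, −0.034 for Dclk1 and −21.8 for Cd74. At resolution 0.5 there were 7 clusters, 0 enterocyte-like and 53 enteroendocrine-like cells, and with mitochondrial genes kept 121 and 50. Where a value changed, the cause was not tested. Group fits with cells at or below 8.5% only and a hashtag share of at least 80% were not run, since sums held under 10 cells.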
